A study of Mus musculus with 6 samples.

Results

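Genes that mark regulatory T cells were followed in CT26 tumors of mice treated with the kinase inhibitor H89. The 7 genes were Foxp3, Il2ra, Ikzf2, Ikzf4, Lrrc32, Il10 and Ebi3, taken by name from the 23557 genes of the table. The list was drawn up with earlier results of these data known. CT26 cells come from a mouse colon carcinoma that grows in BALB/c hosts. Female Balb/c mice aged 7 weeks received 500000 CT26 cells under the skin. In the H89 group, H89 at 10 mg/kg was injected into the peritoneum 2 times a week from day 6, and the control group received NaCl by the same route. Total RNA of whole tumors removed on day 14 was sequenced, with 3 tumors in each group. No allele, transgene or cell sort was used in either group, so every value is that of a whole tumor grown from an injected line. H89 is best known as an inhibitor of protein kinase A and also acts on other kinases. The study's methods give 3 mice per group, and the labels number the tumors without naming the mouse of each.

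Regulatory T cells are CD4+ T cells that restrain other lymphocytes, and they often gather in tumors. Their identity rests on the transcription factor Foxp3, and they take up interleukin-2 through a receptor whose alpha chain, CD25, is encoded by Il2ra. They act on their neighbours through surface molecules and through cytokines that include IL-10, active TGF-beta and IL-35. Apart from Foxp3, these genes are also used by other cells: Il2ra by activated T cells, Ikzf2 by some other T and NK cells, Lrrc32 by platelets and endothelium, Il10 and Ebi3 by macrophages and dendritic cells. In a whole tumor, a lower level from fewer cells and one from less RNA per cell cannot be told apart.

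The deposited estimated counts summed to between 27067349 and 31958793 per tumor. After scaling by the trimmed mean of M values (TMM), levels are given as counts per 1000000 (CPM), and 1 count was worth between 0.0313 and 0.0369 CPM before that scaling. All 7 genes passed the filter of a mean of at least 0.5 CPM, as did 13118 genes in all. The edgeR quasi-likelihood test with Benjamini-Hochberg adjustment called 208 of these 13118 genes at an adjusted p under 0.05, which is 1.59%. DESeq2, run without this filter, called 1392 of the 13357 genes to which it gave an adjusted p, which is 10.4%. Leaving out any 1 tumor brought the edgeR count to between 0 and 12. T cell genes were scarce but present in every tumor, with Cd3e, a chain of the T cell receptor complex, between 1.24 and 8.15 CPM.

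None of the 7 genes passed the test. The count was 0 of 7 with edgeR, beside 1.59% of all genes, and 0 of 7 with DESeq2, beside 10.4%. At an unadjusted p under 0.05 the edgeR count was 2 of 7, Ikzf2 and Il10, beside 25% of all genes. The largest fitted differences were those of Il10, Foxp3 and Ikzf2, each above 1 on the log2 scale, as were 2.7% of all genes tested, and each with higher values after H89. Il2ra and Ebi3 were fitted near 0. All 7 fitted values were above 0, beside 50.6% of all genes tested, and their median was 0.44. Il10 reached the filter through its H89 values, its NaCl tumors all lying below 0.5 CPM, so these counts are given as a description. The groups did not overlap for 2 of the 7, Ikzf2 and Il10, both with every H89 tumor above every NaCl tumor, an order found in 15.2% of all genes tested.

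Foxp3, the transcription factor that defines the lineage, was measured at 3.02, 1.7 and 0.59 CPM in NaCl tumors 1, 2 and 3 and at 4.25, 4.08 and 2.97 CPM in H89 tumors 1, 2 and 3. Both highest values were those of H89 tumors and both lowest those of NaCl tumors, but NaCl tumor 1 and H89 tumor 3 were nearly level, so the groups overlapped by a narrow margin. The mean was 1.77 ± 1.22 CPM (SD, n = 3) in NaCl tumors and 3.77 ± 0.697 CPM (SD, n = 3) in H89 tumors. The fitted log2 fold change was 1.08 ± 0.48 (SE), with an edgeR adjusted p of 0.213. An exact two-sided permutation test gave p = 0.2, where 3 tumors against 3 allow no p below 0.1.

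The overlap of Foxp3 depended on the scaling. Scaled by the library total alone, NaCl tumor 1 stood at 2.89 CPM and H89 tumor 3 at 3.15 CPM, and the groups did not overlap, an order found in 20.5% of all genes on that scale. The exact permutation p was then 0.1. The order therefore rests on a difference smaller than the counting error, since the exact Poisson 95% interval of NaCl tumor 1 ran from 2.41 to 3.74 CPM and that of H89 tumor 3 from 2.42 to 3.63 CPM on the TMM scale. These intervals cover counting error only. The Foxp3 counts behind them were 84, 46 and 16 in NaCl tumors and 119, 134 and 98 in H89 tumors.

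NaCl tumors covered a wider range of Foxp3 than H89 tumors did, a difference in spread that was not tested. The highest NaCl tumor held 5.13 times the level of the lowest, and the highest H89 tumor 1.43 times. The value therefore moved with single control tumors: without NaCl tumor 1 the log2 fold change was 1.71 with an edgeR adjusted p of 0.125, and without NaCl tumor 3 it was 0.66 with an adjusted p of 0.305. It stayed above 0 under every alternative that tested it, and a filter at 5 CPM left it, like the other 6 genes, untested.

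**Figure D1:**
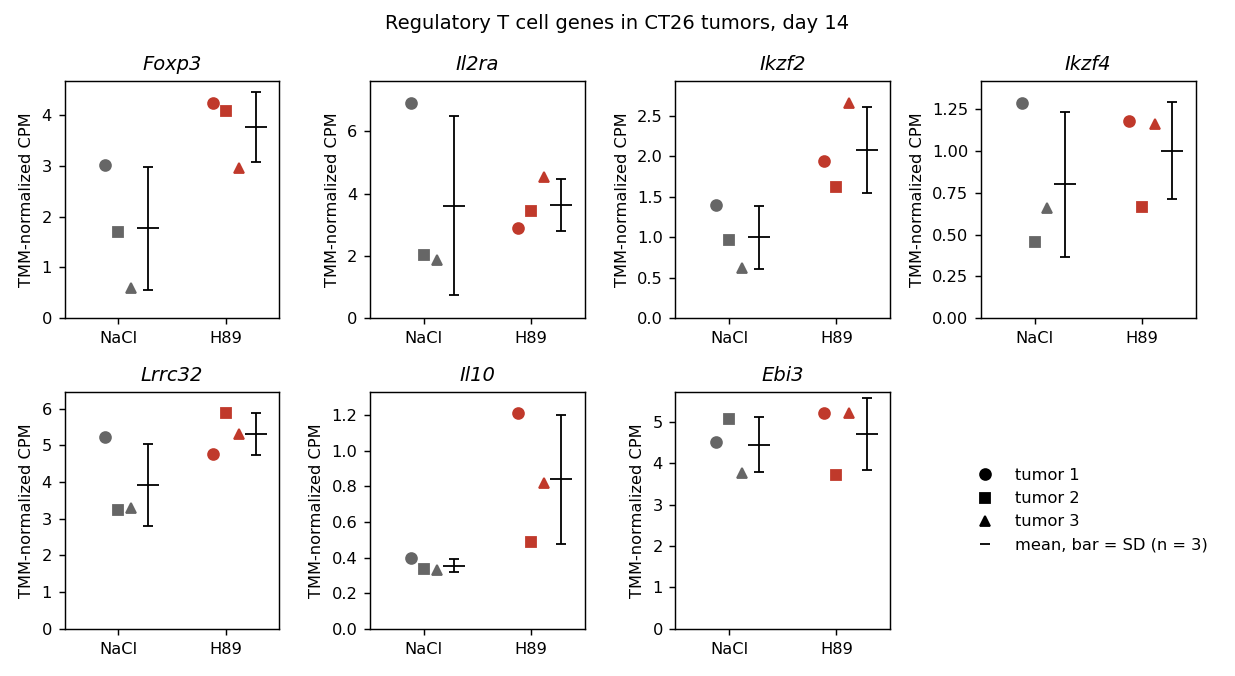
TMM-normalized CPM of the 7 regulatory T cell genes, 1 panel per gene, with NaCl tumors in grey and H89 tumors in red, the tumor number given by the symbol, and the mean with its SD beside the points (n = 3). Foxp3 ran from 0.59 to 3.02 CPM in NaCl tumors and from 2.97 to 4.25 CPM in H89 tumors, Ikzf2 and Il10 did not overlap, and NaCl tumor 1 was the highest of all 6 tumors for Il2ra.

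Foxp3 lies on chromosome X, positions 7573644 to 7595245 of GRCm38, plus strand (GENCODE M21). Its exons overlap those of Ccdc22, Ppp1r3f and Gm36995 on the opposite strand and the non-coding Flicr on its own. No level is given here for Gm36995 or Flicr. Whether the quantification used strand is not given in the sources used here. Without strand, reads of the shared stretches cannot be told apart. Ccdc22 lay between 29.7 and 38.4 CPM, with a fitted log2 fold change of -0.14 ± 0.10 (SE), and Ppp1r3f between 1.24 and 2.68 CPM, at 0.57 ± 0.26; neither passed the test, with edgeR adjusted p of 0.406 and 0.225. RefSeq gives Foxp3 2 starts here, and the stretches before both, on GRCm38.p6, are shown because the ratios to T cell genes all rest on Foxp3, with that of Il2ra for comparison. The first is shown only up to an annotated UTR. Capitals mark GGAAA, the core bound by NFAT, the factor that calcineurin switches on in activated T cells, and, in the second, also TTCNNNGAA, the palindrome bound by STAT proteins such as the STAT5 of interleukin-2 signals, both read on either strand, the 2 matches overlapping there.
Foxp3, chrX:7579426-7579566, plus strand: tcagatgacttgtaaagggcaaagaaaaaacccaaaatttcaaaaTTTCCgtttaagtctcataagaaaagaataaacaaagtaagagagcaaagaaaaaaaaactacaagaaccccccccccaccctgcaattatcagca
Foxp3, chrX:7580233-7580482, plus strand: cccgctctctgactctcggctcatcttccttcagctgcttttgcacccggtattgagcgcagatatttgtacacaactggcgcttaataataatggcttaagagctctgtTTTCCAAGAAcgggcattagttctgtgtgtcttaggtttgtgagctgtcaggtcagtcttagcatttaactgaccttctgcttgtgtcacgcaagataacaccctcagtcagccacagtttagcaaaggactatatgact
Il2ra, chr2:11642542-11642791, plus strand: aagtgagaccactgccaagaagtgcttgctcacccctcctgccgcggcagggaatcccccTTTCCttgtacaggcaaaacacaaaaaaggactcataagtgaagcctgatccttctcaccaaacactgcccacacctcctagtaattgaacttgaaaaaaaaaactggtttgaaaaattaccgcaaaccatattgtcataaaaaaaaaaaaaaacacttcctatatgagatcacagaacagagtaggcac

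Over the 250 bases before each of 32851 RefSeq starts, GGAAA was found in 55.6% and TTCNNNGAA in 7.02%. The cAMP response element TGACGTCA, found in 1.55% of them, its shorter form TGACG in 17.8%, the AP-1 site TGANTCA in 6.75% and the RUNX core TGTGGT in 14% were searched in the same way and had no match in the 250 bases before these starts. A match or its absence says only which letters are in this window. Sequences before a start were at hand for 3 of the 7 genes, Foxp3, Il2ra and Ebi3.

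Il2ra, the interleukin-2 receptor alpha chain, was measured at 6.92, 2.02 and 1.88 CPM in NaCl tumors 1, 2 and 3 and at 2.89, 3.45 and 4.54 CPM in H89 tumors 1, 2 and 3. All 3 H89 tumors lay between the highest NaCl tumor and the other two. The fitted log2 fold change was 0.0087 ± 0.49 (SE), with an edgeR adjusted p of 0.993. One library decided this value: without NaCl tumor 1 it was 0.89, with an edgeR adjusted p of 0.145, and without NaCl tumor 3 it was -0.30, with an adjusted p of 0.761. The gene lies on chromosome 2, positions 11642807 to 11693193, plus strand, and shares no exon with another annotated gene.

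The remaining genes of the interleukin-2 receptor list gave no call with edgeR or DESeq2, with 9 of 10 tested and a median of 0.28 for the log2 fold change. The 2 with the smallest unadjusted p were Jak3, the kinase bound to the common gamma chain, at 0.35 ± 0.13 (SE) with an edgeR adjusted p of 0.154, and Il2rg, that gamma chain itself, at 0.28 ± 0.13 with an adjusted p of 0.237. Il2, the ligand, was not tested, with counts from 0 to 8 in a tumor. Regulatory T cells are commonly told from effector cells by much CD25 and little of the interleukin-7 receptor, so the ratio of Il2ra to Il7r counts was added after the data had been seen, as 1 of 7 ratios so added. It was 1.86, 1.85 and 2.21 in NaCl tumors and 1.32, 1.57 and 1.18 in H89 tumors. Every H89 tumor was below every NaCl tumor, with a log2 difference of -0.54 and p = 0.1 in an exact two-sided permutation test, the smallest this design can give; the groups of the other 6 added ratios overlapped.

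Ikzf2, which encodes Helios, an Ikaros family factor common in thymus-derived regulatory T cells, was measured at 1.4, 0.97 and 0.621 CPM in NaCl tumors and at 1.94, 1.62 and 2.66 CPM in H89 tumors. Every H89 tumor was above every NaCl tumor, although the margin between 1.4 and 1.62 CPM was narrower than the counting error, whose 95% intervals ran from 0.998 to 1.92 and from 1.21 to 2.11 CPM. The fitted log2 fold change was 1.04 ± 0.35 (SE), with an edgeR adjusted p of 0.125 and a DESeq2 adjusted p of 0.101. Over the alternatives the adjusted p ran from 0.101 to 0.273.

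Ikzf4, which encodes Eos, a partner of Foxp3 in silencing genes, was measured at 1.29, 0.453 and 0.658 CPM in NaCl tumors and at 1.18, 0.667 and 1.16 CPM in H89 tumors. NaCl tumor 1 was the highest of all 6, and the groups overlapped. edgeR fitted a log2 fold change of 0.31 ± 0.43 (SE), with an adjusted p of 0.681. Without NaCl tumor 1 it was 0.85, with an adjusted p of 0.268.

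Among the 3 other Ikaros family genes, 1 passed the test, beside 1.59% of all genes. Ikzf3, which encodes Aiolos, a factor of many mature lymphocytes, was measured at 1.01, 0.858 and 0.512 CPM in NaCl tumors and at 2.67, 2.37 and 5.11 CPM in H89 tumors. It rose in H89 tumors, all 3 lying above all NaCl tumors, with a log2 fold change of 2.09 ± 0.39 (SE) and an edgeR adjusted p of 0.0488. The call was lost when any of the tumors was left out, with adjusted p from 0.0681 to 0.149, while the log2 fold change stayed between 1.66 and 2.30. Ikzf1 and Ikzf5 did not pass the edgeR test, and DESeq2 called Ikzf1 as well, with an adjusted p of 0.0175.

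Of 18 genes that work with or upstream of Foxp3, 1 passed the test, beside 1.59% of all genes. Their median log2 fold change was 0.054, beside 0.004 over all genes tested. Kmt2d, a histone methyltransferase that primes enhancers, was measured at 151, 146 and 132 CPM in NaCl tumors and at 196, 216 and 201 CPM in H89 tumors. It rose in all 3 H89 tumors relative to all NaCl tumors, with a log2 fold change of 0.52 ± 0.09 (SE) and an edgeR adjusted p of 0.0427. The call was lost when any tumor was left out, with adjusted p from 0.0667 to 0.142. Kmt2d is expressed in nearly every cell type, and its level here is that of the whole tumor.

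Lrrc32, which encodes GARP, the surface dock of latent TGF-beta, was measured at 5.22, 3.25 and 3.29 CPM in NaCl tumors and at 4.75, 5.87 and 5.3 CPM in H89 tumors. NaCl tumor 1 lay inside the range of the H89 tumors and the other 2 NaCl tumors below it. edgeR fitted a log2 fold change of 0.44 ± 0.23 (SE), with an adjusted p of 0.277. Of the 12 genes of latent TGF-beta activation, 11 were tested and none was called with edgeR, with 4 fitted above 0 and 7 below. The 2 with the smallest unadjusted p were both lower in every H89 tumor, an order found in 15.5% of all genes: Ltbp3, which tethers latent TGF-beta to the matrix, at -0.49 ± 0.12 (SE) with an edgeR adjusted p of 0.0729, and Tgfb1, the cytokine itself, at -0.34 ± 0.09 with an adjusted p of 0.0827. DESeq2 called both, with adjusted p of 0.00317 and 0.0151.

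Platelets and endothelium, which also use Lrrc32, were followed by their own genes. Of 8 platelet genes 5 were tested and none was called with edgeR, with a median log2 fold change of -0.47. Pf4 and Ppbp, chemokines of platelet granules, were lower in every H89 tumor, at -1.14 ± 0.24 (SE) and -1.02 ± 0.32, with edgeR adjusted p of 0.0594 and 0.116, and DESeq2 called Pf4. The other 3 tested genes overlapped between groups and were named after their values were seen. They were Gp1ba at -0.47 ± 0.44, Itga2b, an integrin chain of platelets, at -0.073 ± 0.16 and Gp1bb, a platelet adhesion receptor chain, at 0.039 ± 0.40. Of the 5 tested platelet genes, 4 were fitted below 0. The summed level of the list was 31.7 to 49.7 CPM in NaCl tumors and 22.1 to 26.9 CPM in H89 tumors, with Gp6 listed at 0 in 5 of 6 tumors. Pf4 alone made up 19.1 to 31.7 CPM in NaCl tumors and 9.15 to 15 CPM in H89 tumors. Of 7 endothelial genes all were tested, none was called with edgeR or DESeq2 and the median was -0.30, led by Pecam1 at -0.30 ± 0.16 with an edgeR adjusted p of 0.277 and Cdh5 at -0.48 ± 0.26 with an adjusted p of 0.295. The part of these cells in the level of Lrrc32 was not tested.

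Il10, the anti-inflammatory cytokine, was measured at 0.396, 0.336 and 0.329 CPM in NaCl tumors and at 1.21, 0.486 and 0.821 CPM in H89 tumors. Every H89 tumor was above every NaCl tumor. The fitted log2 fold change was 1.23 ± 0.40 (SE), the largest of the 7, with an edgeR adjusted p of 0.122, which ran from 0.12 to 0.371 over the alternatives. The fold change fitted on log2(CPM + 1), with CPM by library total, was 0.45, since that scale shrinks low genes, and without H89 tumor 1 the gene fell under the filter. These levels rest on 11, 9 and 9 counts in NaCl tumors and 34, 16 and 27 in H89 tumors. At this depth H89 tumor 2 was not separable from NaCl tumor 1, with 95% counting intervals of 0.278 to 0.79 CPM and 0.198 to 0.708 CPM. Of 7 genes of the IL-10 receptor and its signal, all were tested, none was called with edgeR, and DESeq2 called 1, Il10ra, with an adjusted p of 0.0163. Both receptor chains were higher in every H89 tumor, Il10ra at 0.54 ± 0.14 (SE) with an edgeR adjusted p of 0.08 and Il10rb at 0.27 ± 0.09 with an adjusted p of 0.132.

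Ebi3, the subunit that IL-35 and IL-27 share, was measured at 4.5, 5.07 and 3.76 CPM in NaCl tumors and at 5.2, 3.71 and 5.2 CPM in H89 tumors. The groups covered nearly the same range. The fitted log2 fold change was 0.081 ± 0.21 (SE), with an edgeR adjusted p of 0.837. Its partner in IL-35, Il12a, stayed between 0.036 and 0.243 CPM and was not tested. Of its 7 partner and receptor genes 6 were tested, all 6 were fitted above 0 with a median log2 fold change of 1.05, and none was called with edgeR or DESeq2. Il27ra, a receptor chain of IL-27, lay at 0.67 ± 0.20 (SE) with an edgeR adjusted p of 0.105, and Il27, its partner in IL-27, at 1.43 ± 0.44 with an adjusted p of 0.108.

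Levels can be set against each other only per length of the gene's exons. In CPM per kilobase of joined exons, the means in NaCl tumors ran from Ebi3 at 3.85 over Lrrc32 at 0.836, Il2ra at 0.632, Foxp3 at 0.387, Il10 at 0.27 and Ikzf4 at 0.133 to Ikzf2 at 0.0859. Ebi3 stood clear of the next gene, and Il10 stood clear of Ikzf4. All other neighbours overlapped between tumors. In H89 tumors the order was Ebi3 at 4.08, Lrrc32 at 1.13, Foxp3 at 0.823, Il10 at 0.641, Il2ra at 0.635, Ikzf2 at 0.178 and Ikzf4 at 0.167. There Ebi3 and Lrrc32 each stood clear of the next gene, as did Il2ra of Ikzf2, and the rest overlapped. With the longest transcript as the length, Lrrc32 no longer stood clear of Foxp3, and Il2ra came before Il10.

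Most of the 7 genes shared an order among the control tumors. NaCl tumor 1 was the highest NaCl tumor for 6 of the 7 genes, and for all 16 T cell genes. NaCl tumor 3 was the lowest for 5 of the 7 and for 12 of the 16. Among H89 tumors on the TMM scale, tumor 1 was the highest for 4 of the 7 genes. On that scale tumor 3 was the highest for 13 of the 16 T cell genes and tumor 2 the lowest for 14. The place of H89 tumor 1 depended on the scaling. By library total alone it led for Il10 only. Foxp3 was then 4.18 CPM in H89 tumor 1 and 4.2 in H89 tumor 2. Ikzf4 and Ebi3 were 1.16 and 5.11 CPM in H89 tumor 1 and 1.23 and 5.53 CPM in H89 tumor 3. Over the 6 tumors, Pearson's r with Foxp3 was 0.84 for Lrrc32, 0.83 for Ikzf2, 0.63 for Il10, 0.59 for Il2ra, 0.52 for Ikzf4 and 0.34 for Ebi3 on log2(CPM + 0.5), points that share the libraries and the 2 groups.

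T cell genes as a whole lay higher in H89 tumors without passing the test. All 16 T cell genes were fitted above 0, none was called with edgeR, and the median log2 fold change was 1.19. At an unadjusted p under 0.05 there were 9 of 16, beside 13.1% of all genes in that direction. DESeq2 called 5, beside 10.4% of all genes it tested in either direction. Cd3g and Cd8a had the smallest p, at 1.64 ± 0.48 (SE) and 1.76 ± 0.53, with edgeR adjusted p of 0.101 and 0.104. The summed level of the list was 47.2 to 102 CPM in NaCl tumors and 83.8 to 158 CPM in H89 tumors, so the sums overlapped. The fitted difference of Foxp3 lay inside the range of these genes, above that of Cd4 at 0.68 ± 0.36 and below that of Cd3e at 1.17 ± 0.52 and of Cd8a. Differences between these genes were not tested.

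Foxp3 relative to T cells was read as a ratio of counts within each tumor, which does not depend on library size. The ratio of Foxp3 to Cd3e was 0.801, 0.972 and 0.482 in NaCl tumors 1, 2 and 3 and 0.904, 1.7 and 0.365 in H89 tumors 1, 2 and 3. H89 tumors held both the highest and the lowest ratio. On the log2 scale NaCl tumors averaged -0.47 ± 0.52 (SD, n = 3) and H89 tumors -0.28 ± 1.11 (SD, n = 3), a difference of 0.19, and an exact two-sided permutation test gave p = 0.9.

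The ratio of Foxp3 to Cd8a, the alpha chain of the CD8 co-receptor of cytotoxic T cells, was 0.837, 0.749 and 0.203 in NaCl tumors and 0.492, 1.15 and 0.165 in H89 tumors. H89 tumors again held both extremes, 6.94-fold apart, against 4.13-fold among NaCl tumors. The log2 difference was -0.15, with p = 0.9 in the exact permutation test. Its sign turned with the tumor left out: it was 0.58 without H89 tumor 3, the tumor with the most Cd8a, and -0.82 without H89 tumor 2. The sign of the Cd3e ratio turned likewise, to -0.33 without H89 tumor 2.

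The ratio of Foxp3 to Cd4, the co-receptor of helper and regulatory T cells, was 0.558, 0.484 and 0.311 in NaCl tumors and 0.723, 0.568 and 0.67 in H89 tumors. Every H89 tumor was above every NaCl tumor, and the log2 difference was 0.57. The exact permutation p was 0.1, the smallest that 3 tumors against 3 can give. Cd4 is also expressed by some macrophages and dendritic cells, so this is not a share of T cells. Of the 3 ratios, only that to Cd4 separated the groups, and the margin was that between 0.558 in NaCl tumor 1 and 0.568 in H89 tumor 2.

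**Figure D2:**
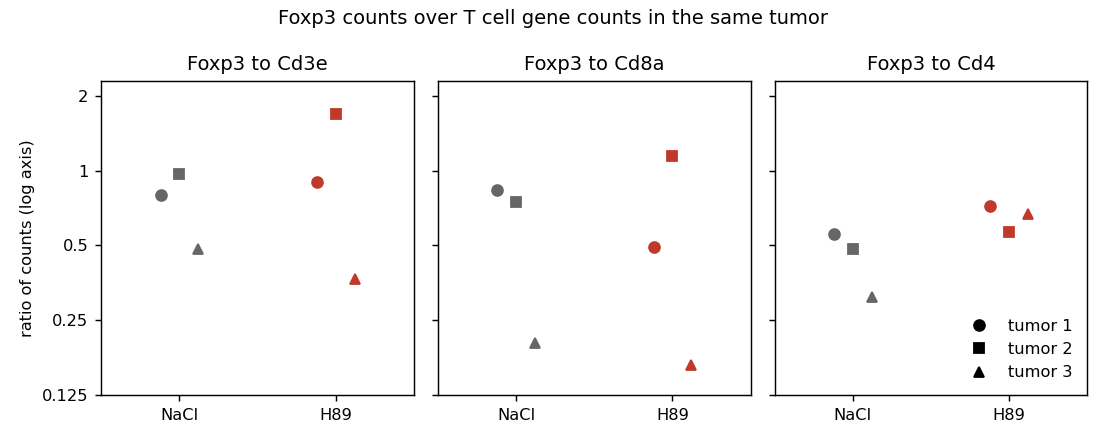
Ratio of Foxp3 counts to Cd3e, Cd8a and Cd4 counts in the same tumor on a log axis, NaCl tumors in grey and H89 tumors in red, 1 point per tumor. H89 tumors spanned 0.365 to 1.7 for Cd3e and 0.165 to 1.15 for Cd8a, wider than NaCl tumors, whereas for Cd4 they lay between 0.568 and 0.723, above all NaCl tumors.

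The genes whose pattern over the 6 tumors was most like that of Foxp3 were Gk5, Kcnd1, Hoxc5, Gins3 and Ttyh3, with Pearson's r between 0.983 and 0.988 among 13111 genes. With 6 points, 2.1% of all genes reached an r above 0.9. Cd4 ranked 14 with r = 0.975, Cd3e ranked 1827 with r = 0.679 and Cd8a ranked 3403 with r = 0.452. None of these 8 genes was called with edgeR or DESeq2.

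Of 20 surface and effector genes of activated regulatory T cells, 17 were tested and edgeR called 1, beside 1.59% of all genes. DESeq2 called 5 higher and 1 lower, beside 10.4% of all genes it tested. Itgae, the integrin chain CD103 that holds lymphocytes at epithelia and that dendritic cells and CD8+ T cells carry too, was measured at 1.12, 1.19 and 1.13 CPM in NaCl tumors and at 2.39, 2.67 and 2.77 CPM in H89 tumors. It rose in every H89 tumor, with a log2 fold change of 1.18 ± 0.21 (SE) and an edgeR adjusted p of 0.0443, and the closest values of the 2 groups were 1.19 and 2.39 CPM. The call was lost when any tumor was left out, with adjusted p from 0.0667 to 0.147. The list had 12 genes fitted above 0 and 5 below, with a median of 0.71.

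Some further genes of that list were chosen for mention after their values were seen. Ctla4, the inhibitory receptor, was fitted at 1.05 ± 0.55 (SE), Tnfrsf18, which encodes GITR, at 0.71 ± 0.32 and Icos, a costimulatory receptor, at 1.02 ± 0.52, with overlapping groups and edgeR adjusted p of 0.275, 0.211 and 0.264. Izumo1r, the folate receptor 4 of regulatory T cells, was higher in every H89 tumor at 1.60 ± 0.41, with an edgeR adjusted p of 0.0827 and a DESeq2 adjusted p of 0.0367. Its NaCl mean was 0.451 CPM, so it passed the filter of 0.5 CPM through its H89 values, and these figures are a description. Tigit, an inhibitory receptor, and Areg, a repair growth factor, were lower in every H89 tumor, at -0.34 ± 0.13 and -1.21 ± 0.27, with edgeR adjusted p of 0.166 and 0.0659, and DESeq2 called Areg at 0.000441. Ccr8, a chemokine receptor of tumor regulatory T cells, was not tested, at 0 to 0.54 CPM in NaCl and 0.243 to 0.638 CPM in H89 tumors.

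**Figure D3:**
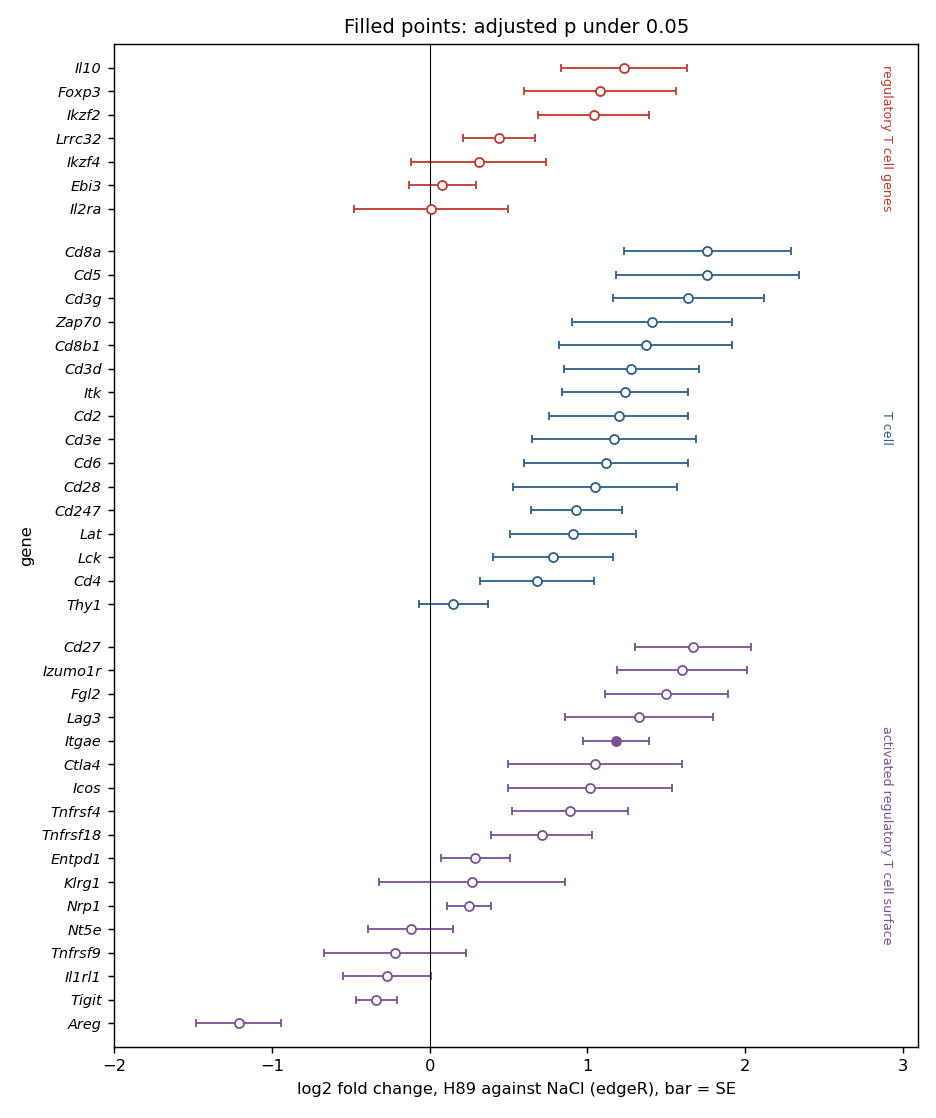
Fitted log2 fold change of H89 against NaCl with its SE (edgeR) for the 7 regulatory T cell genes, the 16 T cell genes and the 17 tested surface genes of activated regulatory T cells, filled where the adjusted p was under 0.05. Among these 40 genes only Itgae is filled, the T cell genes all lie above 0, and the 7 run from 0.0087 for Il2ra to 1.23 for Il10.

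Genes of other lymphocytes also lay higher in H89 tumors. The NK cell list, 5 of 6 genes tested, had a median log2 fold change of 1.62 and no call with edgeR, and DESeq2 called 4, beside 10.4% of all genes it tested. Klrd1 and Klre1, lectin receptors of NK cells, had the smallest p, at 2.04 ± 0.42 (SE) and 1.83 ± 0.42, with edgeR adjusted p of 0.0564 and 0.0682. The summed level of the list was 5.2 to 13.6 CPM in NaCl tumors and 16.7 to 41.2 CPM in H89 tumors, while Klra8 was listed at 0 in all 6. The T helper 1 list was fitted above 0 in 7 of 7 genes, with a median of 1.06 and no call with edgeR, led by Il18r1 at 1.40 ± 0.29 and Cxcr3 at 1.06 ± 0.33, with edgeR adjusted p of 0.0594 and 0.11. DESeq2 called Il18r1, with an adjusted p of 0.000644.

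Of 9 genes of T helper 2 and 17 cells, 7 were below the filter and 2 were tested, Gata3, at 2.81 to 4.56 CPM over the 6 tumors, with a log2 fold change of 0.36 ± 0.19 (SE), and Il4 at 0.13 ± 0.27, neither called by edgeR or DESeq2, with adjusted p of 0.287 and 0.79, and with Il17a listed at 0 in every tumor. Of 6 B cell genes 2 were tested, Cd79a at 0.92 ± 0.34 and Cd79b at 0.46 ± 0.51, neither called by either tool, with edgeR adjusted p of 0.151 and 0.602. Of 8 macrophage genes, which include cells that make Il10 and Ebi3, all were tested and none was called with edgeR or DESeq2, with a median of 0.11. Their summed level was 964 to 1590 CPM in NaCl tumors and 1320 to 1540 CPM in H89 tumors. The smallest p were those of Fcgr1 at 0.57 ± 0.22 and Adgre1 at 0.45 ± 0.32, with edgeR adjusted p of 0.171 and 0.419.

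Of 10 genes of dendritic cells, another source of Ebi3, 9 were tested and none was called with edgeR. Their median log2 fold change was 0.38, with 6 fitted above 0 and 3 below. Xcr1, a receptor of cross-presenting dendritic cells, lay at 2.07 ± 0.56 (SE) and Fscn1, an actin bundling protein also made by tumor cells, at -0.37 ± 0.13, with edgeR adjusted p of 0.0869 and 0.133, and DESeq2 called both, at 0.0216 and 0.0415. Xcr1, like Il10, passed the filter through its H89 values, with all NaCl tumors below 0.5 CPM. Of 8 genes of fibroblasts and pericytes all were tested and none was called with edgeR, with a median of 0.29, led by Col3a1 at 0.49 ± 0.15 and Dcn at 0.34 ± 0.14, with edgeR adjusted p of 0.115 and 0.183. DESeq2 called Col3a1, with an adjusted p of 0.0336. In the keratinocyte list, 2 of 10 genes were tested, with Krt1, Dsg1a and Ivl listed at 0 in every tumor. Its 1 call was Cdsn, a protein of skin cell junctions, at 43.1, 51.1 and 69.7 CPM in NaCl tumors and 14.3, 10.3 and 12.4 CPM in H89 tumors. It fell by 2.15 on the log2 scale with an edgeR adjusted p of 0.0288. Left-out fits gave adjusted p from 0.0406 to 0.119, and the call held only without NaCl tumor 1 or H89 tumor 3. The part of all these cells in the values of the 7 genes was not tested.

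Across all 18 related lists, 141 of 171 genes were tested and 4 were called with edgeR, Kmt2d, Ikzf3 and Itgae higher and Cdsn lower, and DESeq2 called 27. Over all genes tested, edgeR called 1.59% and DESeq2 10.4%. The median log2 fold change over the 141 was 0.31, beside 0.004 over all genes tested.

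**Figure D4:**
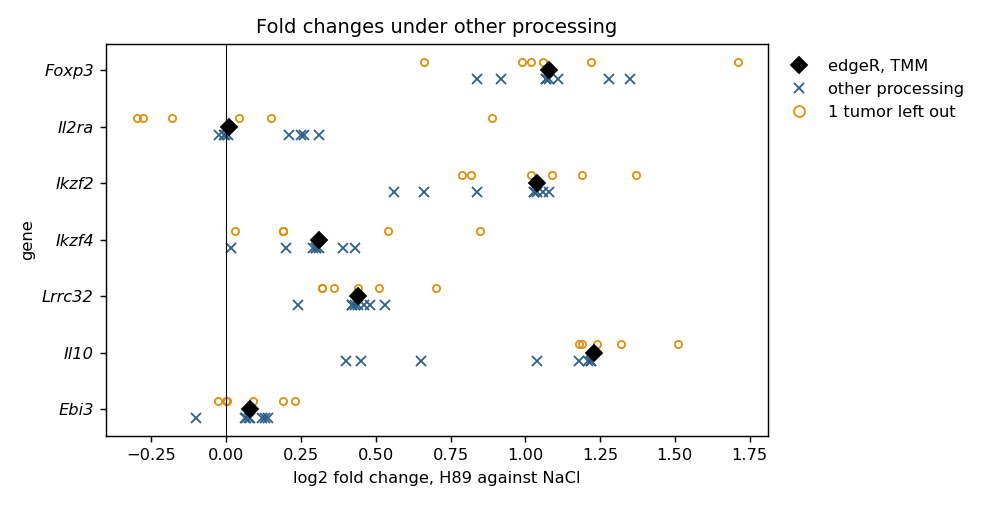
Log2 fold change of the 7 genes with edgeR and TMM (diamonds), under other processing (crosses) and with 1 tumor left out (open circles). Foxp3 ran from 0.66 to 1.71, Ikzf2 and Il10 also stayed above 0, and Il2ra, from -0.30 to 0.89, and Ebi3 crossed 0.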

How the data were processed

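Total RNA of 6 CT26 tumors was sequenced on the BGISEQ-500 platform. The authors deposited 1 table of estimated counts per gene, named for TPM although each tumor's values sum to at least 27067349 and are not scaled for depth or length. The submitters' processing notes name kallisto, DESeq2 and GRCm38, and the strand setting is not given in the sources used here. The columns of 1114 genes were listed one by one, and the other 22443 were read likewise.

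Estimated counts were rounded and tested with edgeR 4.0.16 (R 4.3.3; TMM, glmQLFTest, with no covariate beside treatment) for 13118 genes averaging 0.5 CPM or more by library total, with Benjamini-Hochberg adjustment over all of them and a threshold of 0.05. The SE was taken as |log2 fold change| over the root of the F statistic. The fit was tested on simulated data. The simulation gave every gene the same dispersion, so it does not show how the fit behaves at the spread of Foxp3 among these tumors. The authors compared groups with DESeq2 and Bonferroni correction, and reported genes that passed it with an absolute log2 fold change above 1. By the same thresholds edgeR called 0 genes here. The rule was not counted on the DESeq2 fit, so this 0 is not a repeat of the authors' selection. Ratios were tested by an exact two-sided permutation over the 10 splits of 3 and 3 on log2 ratios with 0.5 added to both counts. Alternatives were the median ratio and quantile normalization, no filter, a filter of 5 CPM, DESeq2 1.42.0, limma 3.58.1 on log2(CPM + 0.5), (CPM + 1) and (CPM + 0.1), a block for the tumor number, and leaving out 1 tumor at a time. The limma fits and the quantile normalization started from CPM by library total, without TMM. Positions and lengths are those of GENCODE M21, matched by symbol. Depth limits the genes under 1 CPM most.

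The members and lists were chosen with earlier results of these data known. Whether levels are printed as TMM-normalized CPM or by library total was settled after both had been computed; TMM was kept because the test uses it. Named were the 7 genes, Cd3e, Cd8a and Cd4, in each list the called genes or else the 2 with the smallest p, the 5 genes most correlated with Foxp3, and others where the text says so.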

Additional observations from a re-analysis of the deposited data

How the results depend on the processing

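No regulatory T cell gene was called under any of the 14 alternatives that tested one. Foxp3, Ikzf2, Ikzf4, Lrrc32 and Il10 kept their direction wherever they were tested, which Il10 was not without H89 tumor 1. Foxp3 ran from 0.66 to 1.71 with 1 tumor left out. Il2ra turned to -0.023 with quantile normalization, -0.0036 without a filter and -0.0079 with DESeq2, and to -0.28, -0.30 and -0.18 without NaCl tumor 2, NaCl tumor 3 and H89 tumor 3, while the highest value with 1 tumor left out was 0.89. Ebi3 turned to -0.10 with quantile normalization and, with 1 tumor left out, ran from -0.026, without NaCl tumor 3, to 0.23. With 1 tumor left out, the Foxp3 to Cd3e difference ran from -0.33 to 0.78 and that to Cd8a from -0.82 to 0.58. The latter also turned to 0.0053 as a difference of mean linear ratios and to 0.57 with Cd4 as the denominator. The cause of these turns was not tested. A filter at 5 CPM left none of the 7 genes to test.

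Calls over all genes numbered 208, but 88 with quantile normalization, 1392 with DESeq2 and between 0 and 12 with 1 tumor left out. Calls in the related lists numbered 4, but 2 with quantile normalization, 8 without a filter, 2 with a filter at 5 CPM, 27 with DESeq2 and 0 or 1 with 1 tumor left out. Where 1 tumor was left out, fewer samples entered the fit. Of the called genes, 113 of 208 were higher in H89 tumors with edgeR, 123 of 251 with the median ratio, 144 of 311 without a filter, 634 of 1392 with DESeq2, 124 of 197 with a filter at 5 CPM, 58 of 88 with quantile normalization and 143 of 171 with limma on log2(CPM + 0.5). That limma fit used CPM by library total, without TMM. Its median log2 fold change over all genes was 0.069, beside 0.004 with edgeR and TMM, so its share of higher calls is on another scale.

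With the tumor number as a replicate block, 0 genes of the whole table were called, 0 in the related lists and 0 of the 7, and the Foxp3 value was 1.28. Deviations of same-numbered tumors correlated at 0.16, 0.061 and -0.025, so the numbers are not shown to pair the tumors. For both ratios the block left the difference at 0.19 and -0.15, with exact sign-flip p = 0.75.

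Printed on the scale of the library total in place of TMM, a choice settled after both were seen, Foxp3 no longer overlapped between groups, and the share of all genes with every H89 tumor above every NaCl tumor was 20.5% in place of 15.2%.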
